A study of Mus musculus with 6 samples.

Results

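The 10 genes described here mark T cells and natural killer (NK) cells. They are Cd3d, Cd3e, Cd3g, Cd4, Cd8a, Cd2, Lck, Il7r, Nkg7 and Gzma, chosen by name with earlier results of these data known. All 10 were among the 21456 genes measured in white adipose tissues (WATs). RNA came from 6 mice on a chow diet, 3 of them control mice with the genotype Ntsr2 flox/flox and 3 of them Ntsr2 AKO mice (Adipoq-Cre::Ntsr2 flox/flox). Both groups carry the floxed allele of Ntsr2, the gene of a neurotensin receptor, and Adipoq drives Cre in adipocytes, so the deletion is directed at adipocytes and not at lymphocytes. The fat depot, age and sex of these mice are not given in the sources used here, and neither is whether the controls were littermates. The mice are named by group and by the replicate number in the labels, 3, 4 and 5.

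WATs hold a small population of lymphocytes beside adipocytes, macrophages and vessels. A T cell recognises antigen through a T cell receptor whose signal is carried by the CD3 chains and started by the kinase LCK. CD4 marks helper and regulatory T cells and CD8 marks cytotoxic T cells. NK cells lack the T cell receptor and share with cytotoxic T cells a set of granule proteins, among them granzyme A. Survival of most resting T cells depends on the interleukin-7 receptor.

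The values are normalized counts, that is, read counts divided by a size factor for each mouse. Whole reads were recovered for 100% of the values (within 0.01 reads), with totals of 60405373 to 66098226 reads in the controls and 54085088 to 56268725 in the Ntsr2 AKO group. Ntsr2 itself had 83.8, 64.0 and 153 normalized counts in control mice 3, 4 and 5 and 3.10, 8.29 and 0 in Ntsr2 AKO mice 3, 4 and 5, in the direction the labels give. Adipoq, the adipocyte gene of adiponectin, was high in all 6 mice (163803 to 220865 normalized counts). A list of 10 skeletal muscle genes summed to 2579292 normalized counts in control 5, 84040 in Ntsr2 AKO 4 and 184068 in Ntsr2 AKO 5, against 415 to 1430 in the other 3 mice, so the main results are also given without these 3 mice. Control 3 stood apart in lymphoid genes, as described with the results.

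All 10 genes passed the filter of a mean of at least 10 normalized counts, but they were scarce. Compared per kilobase of exon, since longer genes collect more reads, the mean level over the 6 mice was highest for Gzma (143 normalized counts per kb) and Nkg7 (128). Cd2 (68.2), Lck (64.1), Il7r (38.0), Cd3d (30.0), Cd3g (24.9), Cd8a (23.7), Cd4 (22.3) and Cd3e (14.1) followed. Each gene overlapped in its range with the next in this order. Within a mouse, Nkg7 was above Cd2, Lck above Il7r, Il7r above Cd3d and Cd4 above Cd3e in 5 of the 6 mice. For the other neighbours this held in 2 to 4 mice, so no pair of neighbours was ordered alike in all 6. The defining T cell transcripts Cd3d, Cd3e and Cd3g were present in every mouse, at 5 recovered reads or more. In bulk tissue, fewer lymphocytes and less of a transcript in each lymphocyte cannot be told apart.

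**Figure D1:**
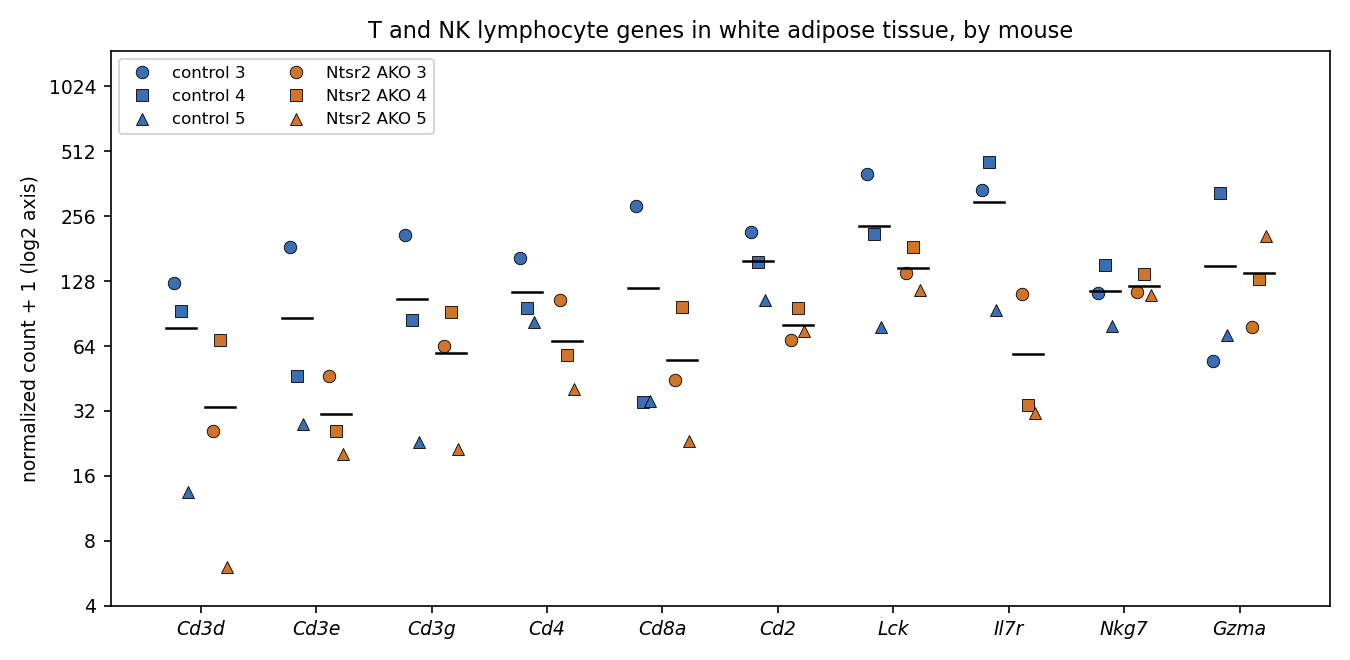
Normalized count + 1 (log2 axis) of the 10 genes in each mouse, controls in blue and Ntsr2 AKO mice in orange, with the replicate number given by the symbol and the arithmetic mean of 3 mice as a bar. Control 3 is the highest mouse for 7 of the 8 genes from Cd3d to Il7r, and only Cd2 has all 3 Ntsr2 AKO mice below all 3 controls.

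No gene of the 10 passed the limma test at an adjusted p of 0.05, and the same holds for edgeR (0) and DESeq2 (0). Over all genes tested, limma called 0.00619% (1 gene of 16157), edgeR 0 genes and DESeq2 220 genes. At an unadjusted p under 0.05, Il7r and Cd2 were lower in Ntsr2 AKO mice in all 3 tools, which is 2 of the 10, and none was higher. By limma, 5.27% of all genes were lower and 3.08% higher at that level. The mean log2 level was lower in Ntsr2 AKO mice for 8 of the 10 genes, where 51.0% of all genes were lower. The median log2 fold change was -0.71 over the 10 genes and -0.01 over all genes tested. The 8 genes with a lower mean were the CD3 chains, the coreceptors, Cd2, Lck and Il7r, and the 2 others were the cytotoxic genes Nkg7 and Gzma. T-lineage genes is used here only as a short name for the 10 without Nkg7 and Gzma, the same 8. Of these, Cd2 is also a molecule of NK cells, and innate lymphoid cells also use Il7r.

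Il7r encodes the alpha chain of the interleukin-7 receptor, which T cells and innate lymphoid cells use for survival. It had the largest log2 difference of the 10. Its normalized counts were 338, 457 and 93.1 in control mice 3, 4 and 5 (296 ± 186, SD, n = 3) and 110, 33.2 and 30.4 in Ntsr2 AKO mice 3, 4 and 5 (58.0 ± 45.4, SD, n = 3). The groups overlapped, because Ntsr2 AKO 3 lay above control 5, while Ntsr2 AKO 4 and 5 were below every control. limma gave a log2 fold change of -2.31 (SE 0.74, 95% interval -4.07 to -0.55), which corresponds to 4.96 times less in Ntsr2 AKO mice. The unadjusted p was 0.0173 by limma and the adjusted p 0.545. The adjusted p was 0.599 in edgeR and 0.0566 in DESeq2. Without control 3 the log2 fold change was -2.08 and the unadjusted p by limma 0.0588.

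Cd2 encodes an adhesion molecule of T cells and NK cells that binds to CD48 on mouse cells. It had 215, 157 and 104 normalized counts in control mice 3, 4 and 5 (159 ± 55.9, SD, n = 3) and 67.1, 95.4 and 73.9 in Ntsr2 AKO mice 3, 4 and 5 (78.8 ± 14.8, SD, n = 3). All 3 Ntsr2 AKO mice lay below all 3 controls, with Ntsr2 AKO 4 closest to control 5. Cd2 was the only gene of the 10 whose groups did not overlap, where 8.16% of all genes tested were separated in this direction and 6.82% in the other. The separation was lost when reads were scaled to the total of each mouse or when values were quantile normalized. With the values as deposited, the log2 fold change of Cd2 was -0.95 (SE 0.35, 95% interval -1.79 to -0.12), with an unadjusted p by limma of 0.0301 and an adjusted p of 0.565. Without control 3 it was -0.70, with an unadjusted p by limma of 0.102, and with scaling to the column total it was -0.86, with an unadjusted p of 0.0596.

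The 3 CD3 chains are encoded by a cluster on chromosome 9 that spans 40.1 kb in GRCm38. Cd3g (9:44969572-44980431, minus strand) and Cd3d (9:44981786-44987339, plus strand) lie head to head with 1355 bases between their starts. Cd3e (9:44998740-45009627, minus strand) overlaps an antisense gene, Gm48719, and reads from both cannot be told apart without strand. Cd3e had 183, 45.4 and 26.9 normalized counts in control mice 3, 4 and 5 and 45.4, 24.9 and 19.2 in Ntsr2 AKO mice 3, 4 and 5. Control 3 was 4.03 times the next highest mouse, and the other 5 mice overlapped. The log2 fold change of Cd3e was -1.10 (SE 0.76, adjusted p by limma 0.711) and -0.31 without control 3.

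Cd3d had 125, 91.8 and 12.5 normalized counts in control mice 3, 4 and 5 and 24.8, 67.4 and 5.06 in Ntsr2 AKO mice 3, 4 and 5, the last of which stands for 5 recovered reads. Cd3g had 209, 83.6 and 22.1 in the controls and 63.0, 91.2 and 20.2 in the Ntsr2 AKO mice. For both chains mouse 5 was the lowest of its group, and the groups overlapped. The log2 fold change was -1.29 for Cd3d (SE 1.16, adjusted p by limma 0.778), from -2.30 without control 5 to -0.36 without Ntsr2 AKO 5. It was -0.57 for Cd3g (SE 0.91, adjusted p by limma 0.878) and turned to 0.18 without control 3.

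The coreceptors Cd4 and Cd8a are both on chromosome 6. Cd4 binds MHC class II and had 164, 94.9 and 81.5 normalized counts in control mice 3, 4 and 5 and 103, 57.0 and 39.5 in Ntsr2 AKO mice 3, 4 and 5. Ntsr2 AKO 3 lay between the controls and the other 2 were below them, with a log2 fold change of -0.80 (SE 0.46, adjusted p by limma 0.671). Cd8a binds MHC class I and had 286, 34.0 and 34.5 in the controls and 43.4, 96.4 and 22.3 in the Ntsr2 AKO mice. Apart from control 3, which was 2.97 times the next mouse, the Cd8a values of the groups were interspersed. The log2 fold change of Cd8a was -0.61 (SE 0.95, adjusted p by limma 0.875) and 0.40 without control 3.

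Lck, the kinase that phosphorylates the CD3 chains, had 400, 210 and 77.7 normalized counts in control mice 3, 4 and 5 and 139, 183 and 115 in Ntsr2 AKO mice 3, 4 and 5. The controls spread 5.15-fold and enclosed all 3 Ntsr2 AKO mice. Its log2 fold change was -0.38 (SE 0.58, adjusted p by limma 0.873), and 0.16 without control 3.

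Nkg7 encodes a membrane protein of cytotoxic granules and had 112, 152 and 78.7 normalized counts in control mice 3, 4 and 5 (114 ± 36.5, SD, n = 3) and 114, 138 and 109 in Ntsr2 AKO mice 3, 4 and 5 (120 ± 15.4, SD, n = 3). It was the steadiest of the 10, with 1.93-fold between the highest and the lowest mouse. Its log2 fold change was 0.12 (SE 0.32, 95% interval -0.64 to 0.88, adjusted p by limma 0.935). With 3 mice in a group, the values are compatible with any difference within that interval.

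Gzma, the gene of granzyme A, had 53.4, 326 and 71.0 normalized counts in control mice 3, 4 and 5 and 77.4, 131 and 206 in Ntsr2 AKO mice 3, 4 and 5. Control 4 was the highest and control 3 the lowest of the 6, whereas control 3 was the highest for all 3 CD3 chains. Its log2 fold change was 0.25 (SE 0.73, 95% interval -1.48 to 1.97, adjusted p by limma 0.939), and it was negative in edgeR (-0.11) and DESeq2 (-0.12).

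**Figure D2:**
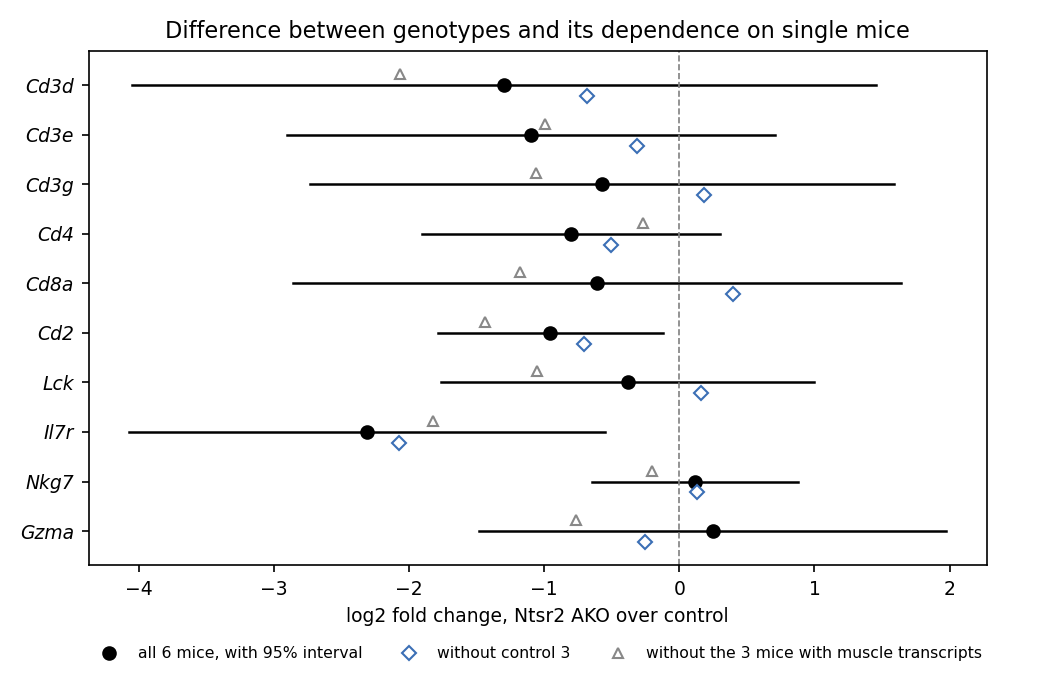
Log2 fold change of Ntsr2 AKO over control for the 10 genes, with the 95% interval of limma over all 6 mice (black), without control 3 (blue diamonds) and without the 3 mice with skeletal muscle transcripts (grey triangles). Only the intervals of Il7r (-4.07 to -0.55) and Cd2 (-1.79 to -0.12) lie below 0, and Cd3g, Cd8a and Lck change sign without control 3.

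The differences depended on single mice. Control 3 was the highest of the 6 mice for 7 of the 8 T-lineage genes, where it was the highest for 18.8% of all genes tested, and the lowest for Gzma. Ntsr2 AKO 5 was the lowest for 6 of the 8. On average over the 8 genes, log2 levels deviated from the mean of the 6 mice by 1.62 in control 3, 0.56 in control 4 and -0.68 in control 5. The deviations were -0.14, -0.07 and -1.29 in Ntsr2 AKO mice 3, 4 and 5, so control 5 was lower than Ntsr2 AKO mice 3 and 4. Without control 3, a lower mean remained in 6 of the 10 genes, beside 51.7% of all genes, the median log2 fold change of the 10 was -0.28 and none was at an unadjusted p under 0.05 by limma. The median was -0.30 without Ntsr2 AKO 5, also with 0 genes at that level, and -1.17 without control 5, with 3 genes. Shares of all genes at that level without Ntsr2 AKO 5 or control 5 are not given here. Without the 3 mice with skeletal muscle transcripts, which leaves control 3, control 4 and Ntsr2 AKO 3, all 10 were lower with a median of -1.06. The share of all genes that were lower in this subset is not given here. This comparison sets control 3, the highest mouse for 7 of the 8 T-lineage genes, and control 4 against a lone Ntsr2 AKO mouse. That mouse was assumed to vary like the controls.

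Promoters are shown for Il7r, Lck, Gzma and Cd3e, the CD3 chain that stood out most in control 3. Among them only Il7r was at an unadjusted p under 0.05 by limma. The windows run from 250 bases before to 50 bases after a start, as RefSeq gives them on GRCm38.p6, 5′ to 3′ on the strand of the gene. Windows were found for 8 of the 10 genes (9 windows, since Lck has 2 starts), and none for Cd2 and Cd4. Capitals mark a core of Ets factors (CAGGAAG, or CTTCCTG on the other strand) and a core of Runx factors (TGTGGT, or ACCACA), both families known for roles in lymphocytes. The 2 motifs do not overlap and were chosen after the windows had been read. The windows are chr15:9529827-9530126 for Il7r, chr9:45009562-45009861 for Cd3e, chr4:129558323-129558622 for the start of Lck inside the gene and chr13:113100932-113101231 for Gzma, all on the minus strand.
Il7r: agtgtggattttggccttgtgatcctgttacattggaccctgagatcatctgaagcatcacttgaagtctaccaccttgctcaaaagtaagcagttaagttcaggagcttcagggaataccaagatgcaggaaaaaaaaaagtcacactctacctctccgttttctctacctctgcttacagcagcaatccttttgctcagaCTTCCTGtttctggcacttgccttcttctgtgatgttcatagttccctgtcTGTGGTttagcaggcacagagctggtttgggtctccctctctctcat
Cd3e: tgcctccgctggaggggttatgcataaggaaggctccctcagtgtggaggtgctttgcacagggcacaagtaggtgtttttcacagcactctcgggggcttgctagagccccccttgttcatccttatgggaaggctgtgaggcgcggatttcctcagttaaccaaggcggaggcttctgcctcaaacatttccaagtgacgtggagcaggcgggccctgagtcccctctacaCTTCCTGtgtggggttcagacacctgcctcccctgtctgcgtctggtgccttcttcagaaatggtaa
Lck: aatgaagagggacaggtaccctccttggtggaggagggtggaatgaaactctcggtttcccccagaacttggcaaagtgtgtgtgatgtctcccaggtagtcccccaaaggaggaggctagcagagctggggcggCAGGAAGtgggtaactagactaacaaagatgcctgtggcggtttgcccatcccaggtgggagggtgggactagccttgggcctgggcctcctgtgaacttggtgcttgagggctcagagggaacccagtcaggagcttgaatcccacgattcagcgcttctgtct
Gzma: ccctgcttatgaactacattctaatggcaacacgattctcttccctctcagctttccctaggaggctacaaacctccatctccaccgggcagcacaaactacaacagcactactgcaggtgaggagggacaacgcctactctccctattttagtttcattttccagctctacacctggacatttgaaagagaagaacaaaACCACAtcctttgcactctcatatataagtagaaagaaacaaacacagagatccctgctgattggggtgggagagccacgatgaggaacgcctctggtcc

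The Ets core was in 5 of the 9 windows (4 of the 8 genes) and in 13.3% of the 32851 windows searched, which leave out chromosome 18. The Runx core was in 4 of the 9 windows (4 of the 8 genes) and in 16.8% of the windows searched. Both cores are in the windows of Il7r and Nkg7 and in the upstream window of Lck, which is not printed. The Ets core alone is in the windows of Cd3e and of the inner start of Lck, the Runx core alone is in that of Gzma, and neither is in those of Cd3d, Cd3g and Cd8a. As the motifs were chosen after the windows had been read, these shares cannot be read as enrichment. The matches describe the letters of the windows and no binding was measured.

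The wider T cell lists were examined in the same way, and no gene in any of them passed an adjusted p of 0.05 by limma. Of 21 tested genes of T cell receptor chains and signalling, 16 had a lower mean in Ntsr2 AKO mice, with a median log2 fold change of -0.47. At an unadjusted p under 0.05 there were 0 genes by limma, 1 by edgeR and 4 by DESeq2, and by limma 3 with the replicate block and 2 without control 4 or control 5. Trbc2, a constant segment of the T cell receptor beta chain, had 231, 180 and 64.3 normalized counts in control mice 3, 4 and 5 and 71.2, 86.0 and 48.6 in Ntsr2 AKO mice 3, 4 and 5 (log2 fold change -1.04, adjusted p by limma 0.628). The groups overlapped, with control 3 highest and control 5 the lowest control. Cd6, a coreceptor that tunes T cell receptor signals, had a log2 fold change of -1.70 (adjusted p by limma 0.632). Control 3 was the highest mouse for 15 of the 21 genes, and without it the median of the list was -0.15.

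Of 10 transcription factors of T cell fate, 8 were lower, with a median log2 fold change of -0.47 and 0 genes at an unadjusted p under 0.05 by limma. Tcf7, which encodes TCF1 of naive and memory T cells, had 468, 107 and 60.4 normalized counts in control mice 3, 4 and 5 and 40.3, 85.0 and 40.5 in Ntsr2 AKO mice 3, 4 and 5. Control 3 was 4.37 times the next mouse, and the log2 fold change was -1.47 with all mice and -0.63 without control 3. Runx3, a factor of the CD8 lineage, had a log2 fold change of -0.83 (adjusted p by limma 0.688). Ets1 had -0.33 (adjusted p 0.689) at levels of 1974 to 3594 normalized counts, far above the CD3 chains.

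Regulatory T cells are known to restrain inflammation in WATs. Of 8 tested genes of their list 6 were lower, with a median log2 fold change of -0.31 and 0 genes at an unadjusted p under 0.05 by limma, and 2 were lower without control 3, with a median of 0.14. Il2ra, the interleukin-2 receptor alpha chain, had a log2 fold change of 0.54 (adjusted p by limma 0.697), Tnfrsf4 (OX40) -0.47 (adjusted p 0.788) and Ikzf2 (Helios) 0.26 (adjusted p 0.840).

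NK cells and cytotoxic T cells kill by granules that hold perforin and granzymes. Of 18 tested genes of NK cells and cytotoxic granules, 11 were lower and 7 higher, with a median log2 fold change of -0.16, and none was at an unadjusted p under 0.05 by limma. The NK receptor gene Klrb1c had 54.3, 134 and 41.2 normalized counts in control mice 3, 4 and 5 and 110, 155 and 137 in Ntsr2 AKO mice 3, 4 and 5 (log2 fold change 0.98, adjusted p by limma 0.618). Ncr1, which marks NK cells, had 39.6, 79.4 and 15.3 in the controls and 59.9, 77.7 and 49.6 in the Ntsr2 AKO mice (log2 fold change 0.73, adjusted p 0.767). In both genes control 4 was the highest control and lay within or beside the range of the Ntsr2 AKO mice. Ccl5, a chemokine of activated T and NK cells, had a log2 fold change of -0.82 (adjusted p by limma 0.678) and Xcl1, another, 0.90 (adjusted p 0.687). Control 3 was the highest mouse for 3 of the 18 genes.

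Type 2 innate lymphoid cells also carry Il7r. Of 5 tested genes of their list 4 were lower, with a median log2 fold change of -0.43. Il1rl1, the interleukin-33 receptor, had 363, 2827 and 3088 normalized counts in control mice 3, 4 and 5 and 477, 442 and 904 in Ntsr2 AKO mice 3, 4 and 5. Controls 4 and 5 stood above the other 4 mice, so this gene did not follow the T-lineage genes, and its log2 fold change was -1.35 (adjusted p by limma 0.684) or -2.36 without control 3. For Il17rb the log2 fold change was 0.78 (adjusted p by limma 0.616), and it was -0.27 for Rora (adjusted p 0.739).

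The ligands and partner chains of the interleukin-7 receptor were compared next, as the gene with the largest difference was Il7r. Tslp encodes a cytokine that signals through a receptor containing the Il7r product, and it had 25.8, 49.5 and 56.6 normalized counts in control mice 3, 4 and 5 and 73.3, 148 and 296 in Ntsr2 AKO mice 3, 4 and 5. All 3 Ntsr2 AKO mice were above all 3 controls, with a log2 fold change of 1.80 (SE 0.58), an unadjusted p by limma of 0.0175 and an adjusted p of 0.546. With single mice left out the unadjusted p of Tslp was 0.00568 to 0.0566, and it was over 0.05 without control 3 or Ntsr2 AKO 5. Ntsr2 AKO 4 and 5, the highest for Tslp, are among the mice with skeletal muscle transcripts, and control 5, with the most of them, had 56.6. A link between Tslp and these transcripts was not tested. Il7, the other ligand, had 112, 170 and 117 in the controls and 195, 78.8 and 207 in the Ntsr2 AKO mice, with groups that overlapped and a log2 fold change of 0.17 (adjusted p by limma 0.930).

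Il2rg, the common gamma chain that pairs with the Il7r product, had 718, 829 and 523 normalized counts in control mice 3, 4 and 5 and 514, 476 and 425 in Ntsr2 AKO mice 3, 4 and 5. The groups did not overlap, with Ntsr2 AKO 3 just under control 5, and the log2 fold change was -0.53 (SE 0.21, unadjusted p by limma 0.0412, adjusted p 0.588). For Il2rg the log2 fold change was -0.43 when reads were scaled to the column total (unadjusted p by limma 0.104). Il15ra, which presents interleukin-15 to NK and T cells, had 2761, 2081 and 2786 in the controls and 3117, 3489 and 3358 in the Ntsr2 AKO mice. It did not overlap either, with a log2 fold change of 0.40 (SE 0.15, unadjusted p by limma 0.0317, adjusted p 0.565). With single mice left out the unadjusted p was 0.0284 to 0.0959 for Il15ra and 0.00798 to 0.130 for Il2rg. Of the 8 tested genes of this list 3 were lower and 5 higher, with a median log2 fold change of 0.17, or -0.06 without Ntsr2 AKO 5. At an unadjusted p under 0.05 by limma there were 3 genes of the list with all mice, 1 without control 4 or Ntsr2 AKO 4, and 0 without Ntsr2 AKO 5.

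**Figure D3:**
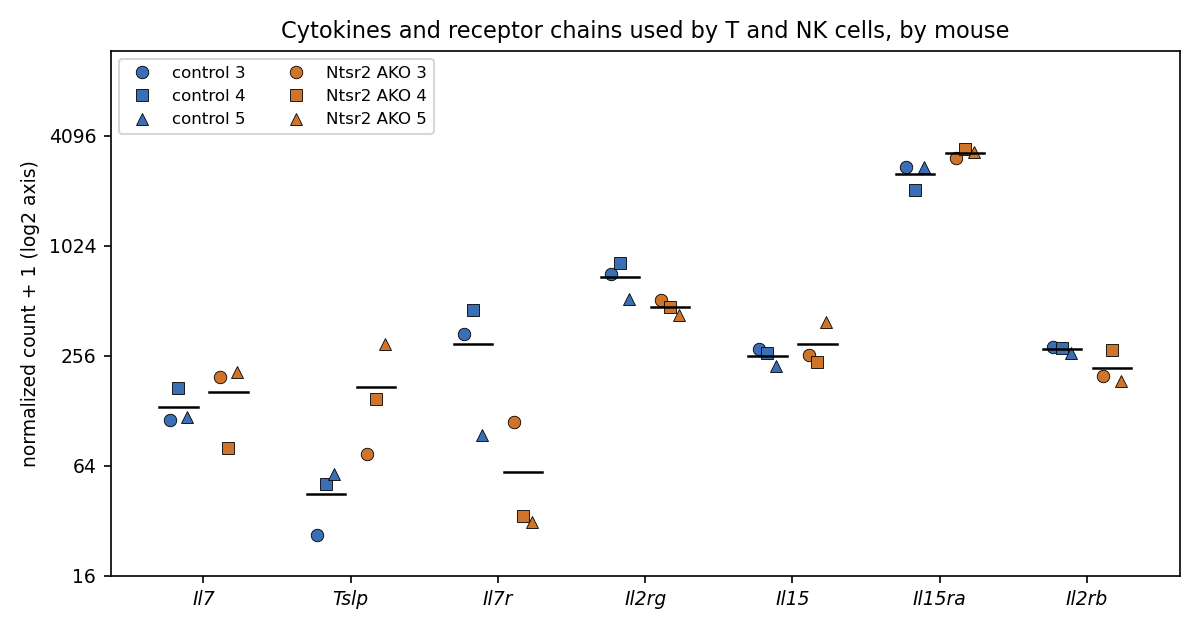
Normalized count + 1 (log2 axis) of cytokines and receptor chains in each mouse, controls in blue and Ntsr2 AKO mice in orange, with the arithmetic mean of 3 mice as a bar. Tslp and Il15ra have all Ntsr2 AKO mice above all controls and Il2rg has them below, while Il7r, Il7, Il15 and Il2rb overlap.

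Homing receptors and their ligands guide T cells between lymph nodes and tissue. Of 11 tested genes 9 were lower, with a median log2 fold change of -0.33. Cxcl10, a chemokine that draws CXCR3-bearing T cells, had 368, 516 and 455 normalized counts in control mice 3, 4 and 5 and 310, 286 and 268 in Ntsr2 AKO mice 3, 4 and 5, without overlap (log2 fold change -0.62, SE 0.19, unadjusted p by limma 0.0157, adjusted p 0.524). Ccr7, the receptor for lymph node chemokines, had 501, 64.0 and 24.0 in the controls and 26.8, 29.0 and 16.2 in the Ntsr2 AKO mice. Control 3 was 7.83 times the next mouse, and the log2 fold change was -1.94 with all mice and -0.73 without control 3.

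The summed B cell genes and some genes of lymph node stroma stood out in the same mouse. The 10 B cell genes summed to 1099 normalized counts in control 3 and to 104 to 259 in the other 5 mice, 4.24 times the highest of them. Pax5, the factor of B cell identity, had 124 in control 3 and at most 7.26 elsewhere. Glycam1 and Chst4, genes of the high endothelial venules of lymph nodes, had 111 and 13.8 in control 3, Glycam1 had 5.06 in Ntsr2 AKO 5, and both were at 0 in the other mice. Ccl21a, a chemokine of lymph node stroma, had 948 in control 3 and 14.4 to 193 elsewhere. Of these genes Pax5 and Chst4 were picked after their values were seen.

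Not every gene of those lists followed control 3. Cxcl13, a chemokine of B cell follicles, had 712 normalized counts in control 3 and 2909 in control 5, and the 7 measured lymph node genes summed to 2355 in control 3 and to 1090 to 3259 in the other mice. All 5 tested lymph node genes had a lower mean in the Ntsr2 AKO group (median log2 fold change -0.51), and 2 were lower without control 3 (median 0.70). Of the 9 tested B cell genes 4 were lower (median 0.16), and 2 were lower without control 3 (median 1.25). The sign of this median was not stable, since it was -1.39 in edgeR, -1.40 in DESeq2, -0.14 with quantile normalization, -0.21 with a pseudocount of 5 and -0.74 without control 4 or control 5. The part of these transcripts in the T-lineage result was not tested.

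**Figure D4:**
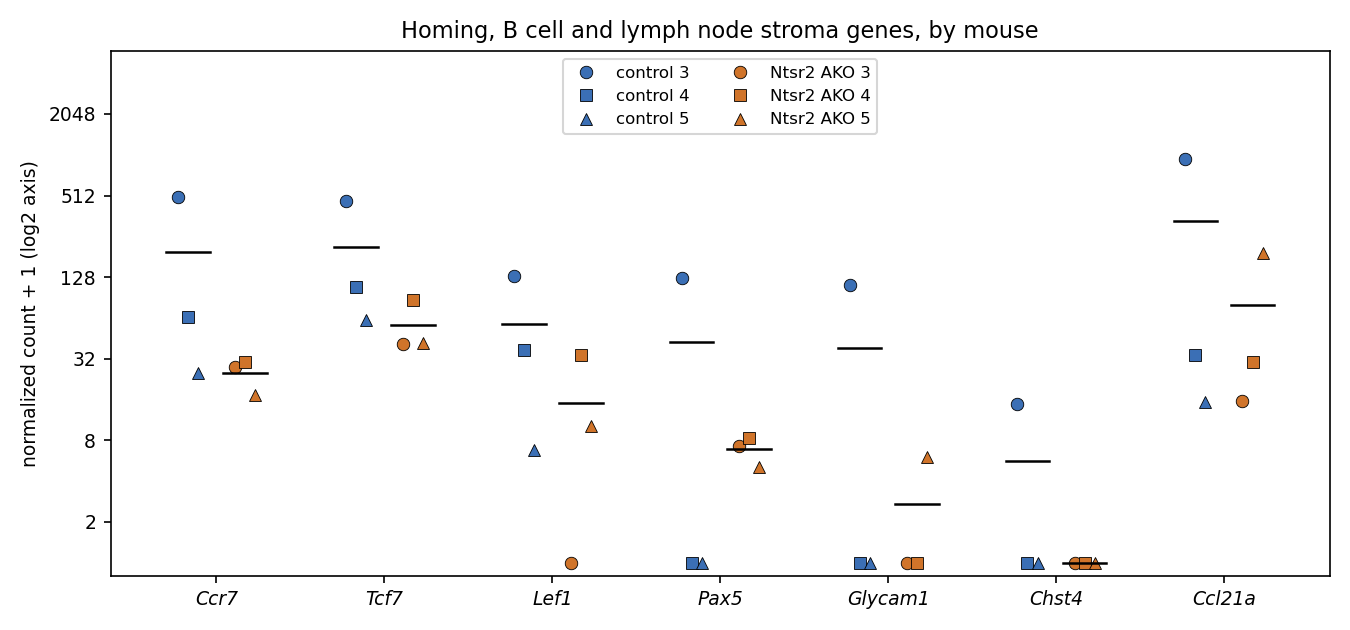
Normalized count + 1 (log2 axis) of a homing gene (Ccr7), T cell factors (Tcf7, Lef1), a B cell gene (Pax5) and lymph node genes (Glycam1, Chst4, Ccl21a) in each mouse, with the mean of 3 mice as a bar and a count of 0 drawn at 1. The genes were picked from their lists, and control 3 is the highest mouse for all 7 and alone has Chst4. Of the 5 tested lymph node genes 3 were highest in control 3, and Cxcl13, not drawn, was higher in control 5.

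Cd22, a B cell receptor inhibitor, was the only B cell gene at an unadjusted p under 0.05 by limma. It had 194, 105 and 34.5 normalized counts in control mice 3, 4 and 5 and 18.6, 14.5 and 33.4 in Ntsr2 AKO mice 3, 4 and 5, so that all controls lay above all Ntsr2 AKO mice, control 5 by a narrow margin (log2 fold change -2.05, SE 0.70, adjusted p 0.557). Cd79b had a log2 fold change of 0.67 (adjusted p 0.753) and Fcrla 0.75 (adjusted p 0.763).

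Markers of other cells were counted in the same way. Of 12 macrophage genes 11 were lower, with a median log2 fold change of -0.25 and 0 genes at an unadjusted p under 0.05 by limma. Without control 3 all 12 were lower, with a median of -0.65, and 4 were at an unadjusted p under 0.05. With all mice the values were -0.43 for Cd14 (adjusted p by limma 0.624), -0.65 for Cd68 (adjusted p 0.695) and -0.70 for Itgax (adjusted p 0.752). Of 8 genes found in all leukocytes 8 were lower, with a median of -0.24, led by Cd53 (log2 fold change -0.79, adjusted p by limma 0.616). Ptprc, the gene of CD45, had a log2 fold change of -0.22 (adjusted p by limma 0.845). Of 6 dendritic cell genes 4 were higher (median 0.38). The medians were -0.04 for 10 adipocyte genes and -0.12 for 6 endothelial genes. Of 10 skeletal muscle genes 9 were higher (median 1.28), and 1 was higher without control 3 (median -0.93). The median of the muscle list was -3.24 in edgeR, -3.26 in DESeq2, -1.11 without control 4 and 6.01 without control 5, so its sign was not stable. Without the 3 mice with skeletal muscle transcripts, the median log2 fold change was -0.98 for T cell receptor chains and signalling, -1.13 for T cell factors, -0.58 for NK cells and cytotoxic granules and -0.61 for homing genes. It was then -0.64 for B cells, -1.14 for lymph node genes, -0.66 for all leukocytes and -1.03 for skeletal muscle.

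**Figure D5:**
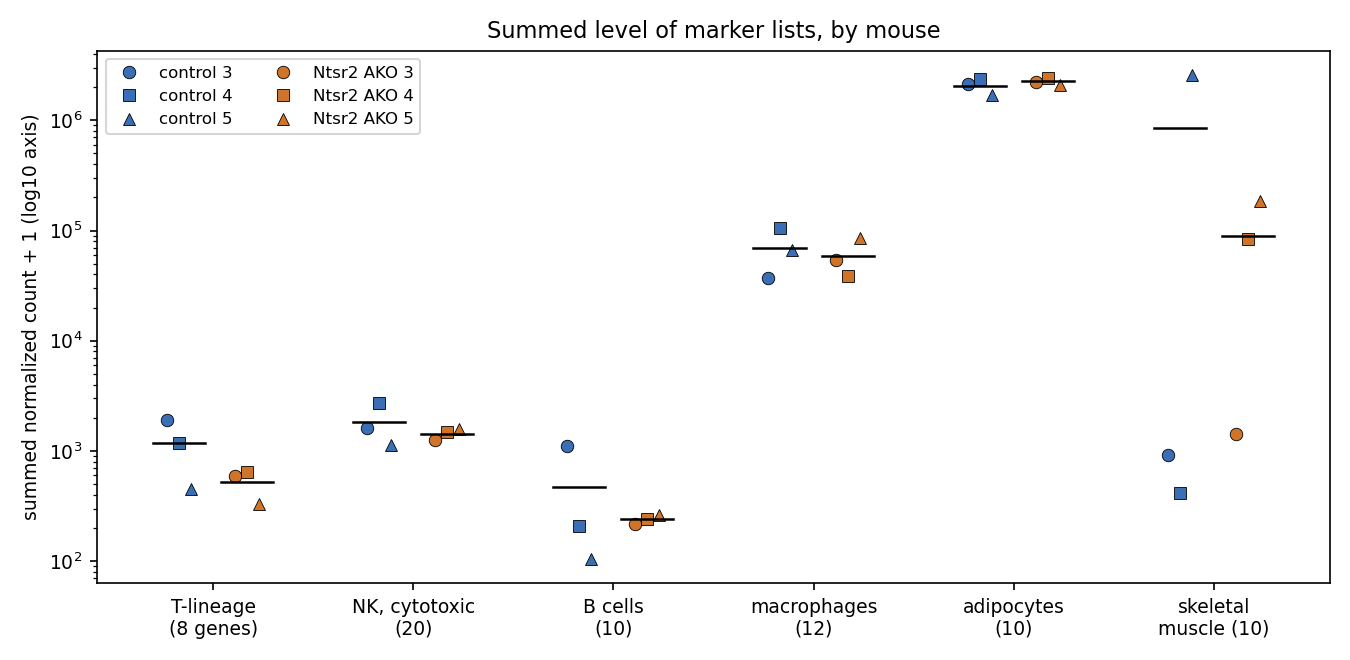
Summed normalized count + 1 (log10 axis) of marker lists in each mouse, with the number of genes summed under each list and the arithmetic mean of 3 mice as a bar. Control 3 is highest for the 8 T-lineage genes (1921) and for B cells (1099) but lowest for macrophages, and control 5 is highest for skeletal muscle (2579292).

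Apart from a pseudocount of 1 added to both normalized counts, ratios of genes within a mouse do not depend on the scaling between mice. They were compared by a two-sided exact permutation test, which with 3 against 3 mice cannot go below p = 0.10, and adjusted over the 4 ratios. The log2 ratio of Cd3e to Cd79b, a T cell gene against a B cell gene, was 0.70, 0.36 and -0.23 in control mice 3, 4 and 5. It was -0.78, -1.38 and -2.32 in Ntsr2 AKO mice 3, 4 and 5. All Ntsr2 AKO mice were below all controls, with a mean difference of -1.77 (0.28 ± 0.47 against -1.49 ± 0.78, SD, n = 3), with an exact p of 0.10, the smallest the design allows, and an adjusted p of 0.40. Cd79b does not stand for the whole B cell list, in which 4 of 9 tested genes were lower and 5 higher. Cd22 had a lower mean log2 level and Cd79b a higher one, and no ratio to Cd22 was tested.

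The other 3 ratios did not separate the groups. The log2 ratio of Cd3e to Ptprc, a T cell gene against a gene of all leukocytes, had a mean of -4.78 ± 1.31 in controls against -5.66 ± 0.93 in Ntsr2 AKO mice (SD, n = 3, exact p = 0.50, adjusted p = 0.80). For Gzma to Cd3e the log2 ratio was 0.81 ± 2.34 in controls against 2.15 ± 1.31 in Ntsr2 AKO mice (SD, n = 3, exact p = 0.60, adjusted p = 0.80). For Cd8a to Cd4 it was -0.62 ± 1.24 in controls against -0.43 ± 1.04 in Ntsr2 AKO mice (SD, n = 3, exact p = 0.80, adjusted p = 0.80). The last was 0.80 in control 3 and 0.75 in Ntsr2 AKO 4, so that a mouse of each group had more Cd8a than Cd4, and below 0 in the other 4.

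The tested genes closest to the mean profile of the 10 over the 6 mice were found by the root mean square distance of log2 deviations. They were Trbc2 (distance 0.17), Scn2b (0.18), Apln (0.19), Nfasc (0.21) and Gpr132 (0.22). Among the 10 themselves Lck lay closest (0.28) and Gzma farthest (1.25). Trbc2 is the T cell receptor beta constant segment described above. Gpr132 had 384, 232 and 89.2 normalized counts in control mice 3, 4 and 5 and 157, 155 and 116 in Ntsr2 AKO mice 3, 4 and 5, an order of mice close to that of Lck.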

How the data were processed

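RNA-seq of WATs of 3 control and 3 Ntsr2 AKO mice was used. The authors trimmed reads with Trimmomatic, aligned them with Hisat2, quantified them with StringTie and used DESeq2. The submitters' processing notes name mm10 as the genome build. The deposited signal values are normalized counts, read counts divided by a size factor for each mouse, and no other column was used. They are not counts, so log2(normalized count + 1) was tested with limma 3.58.1 (eBayes with trend, two-sided, R 4.3.3) on 16157 genes with a mean of at least 10, adjusted by Benjamini-Hochberg over all of them. The recovered reads were tested with edgeR 4.0.16 and with DESeq2 1.42.0. Procedures were tested on simulated counts. The depth leaves counting error mainly in genes with few reads, and 3 mice in a group limit the precision. The p-values of limma, edgeR and DESeq2 set the difference between groups against the spread between mice within a group. In limma the variance of each gene was drawn towards that of genes at a similar level. The p-values of the ratios come from the exact permutation test.

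The 10 genes and the lists were chosen with earlier results of these data known. Named genes are the 10, the 3 of each other list with the smallest limma p, Ntsr2, the genes of the ratios, the defining markers and the 5 nearest profiles. Other named genes were picked after their values were seen. Some genes that this rule names are not reported here. Trdc, Fdcsp and Adgre1 were not analysed here. Gene positions are from GENCODE M21 (GRCm38), where 19770 of 21456 names were found. Alternatives were pseudocounts of 0.1 and 5, a stricter filter (mean of at least 50) or none, quantile normalization, scaling to the column total, limma with a constant prior variance, a block for the replicate number, the tests on reads and leaving out each mouse. Leaving out the 3 mice with skeletal muscle transcripts was added after the data were seen.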

Additional observations from a re-analysis of the deposited data

How the results depend on the processing

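No alternative brought any of the 10 genes past an adjusted p of 0.05, and Il7r and Cd2 stayed lower in Ntsr2 AKO mice under all of them. Of the 10 genes, 2 were at an unadjusted p under 0.05 by limma with all mice, 1 with scaling to the column total, and 0 to 3 when single mice were left out (0 without control 3, control 4 or Ntsr2 AKO 5, 1 without Ntsr2 AKO 4 and 3 without control 5). Over all genes tested, 5.27% were lower and 3.08% higher at that level with all mice, and 4.67% were lower without control 3. The shares of all genes in the other fits are not given here, so these counts cannot be set against them. The number of genes whose groups did not overlap was 0 with quantile normalization or column totals, 1 to 4 with single mice left out (10.1% to 16.1% of all genes were then lower and 9.17% to 14.4% higher without overlap) and 5 without the 3 mice with skeletal muscle transcripts (27.9% of all genes were then separated and lower). Between 6 and 10 genes were lower, with medians of -1.17 to -0.28, when single mice were left out. Over all genes tested, 51.0% were lower with all mice and 51.7% without control 3, and the shares without the other mice are not given here. Ntsr2 passed the adjusted threshold in DESeq2 (log2 fold change -4.72, adjusted p 1.1e-04) and not in limma (log2 fold change -4.81, adjusted p 0.499). The sign of Gzma turned in edgeR (-0.11), DESeq2 (-0.12) and without the mice with muscle transcripts (-0.77), as did that of Nkg7 (-0.20) and of the ratio of Cd8a to Cd4 (-0.91) without those mice. With single mice left out, log2 fold changes ranged from -2.30 to -0.36 for Cd3d, -1.67 to -0.31 for Cd3e, -1.17 to -0.49 for Cd4, -1.23 to -0.70 for Cd2, -3.00 to -1.86 for Il7r, -1.41 to 0.18 for Cd3g, -1.14 to 0.40 for Cd8a, -1.01 to 0.16 for Lck, -0.25 to 1.04 for Gzma, -0.12 to 0.34 for Nkg7 and -0.39 to 0.91 for the ratio of Cd8a to Cd4. The cause of these shifts was not tested.

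Mice with the same replicate number did not deviate together in all pairs (r = 0.45, -0.24 and 0.41 for numbers 3, 4 and 5), and the labels describe no pairing. With the number as a replicate block, 2 genes were at an unadjusted p under 0.05 and 0 at an adjusted p under 0.05 by limma, as without it. Among the other lists the block moved the count at an unadjusted p under 0.05 from 0 to 3 for T cell receptor chains and signalling and from 0 to 1 for T cell factors and for type 2 innate lymphoid cells.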
